A study of Mus musculus with 39 samples.

Results

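Prdm16 and 5 further genes of the PRDM family, Mecom, Prdm1, Prdm6, Prdm8 and Prdm13, were followed through TaDa profiles of Notch and RBPJ in the embryonic mouse cortex. A consensus peak was given to the protein-coding gene whose annotated start site lay nearest to its edge. By this rule 33 of the 20809 consensus peaks on nuclear chromosomes belonged to these 6 genes. Prdm16 had 19 of them, Mecom 7, Prdm13 4, Prdm1 2, Prdm8 1 and Prdm6 0. At least 1 peak was therefore found for 5 of the 6 genes, and for 39.7% of all 21938 protein-coding genes.

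In TaDa, a bacterial Dam methylase joined to a chromatin protein leaves methyl marks on GATC sites around the places where that protein sits, and the marked fragments are then sequenced. Plasmids were brought into the cortex of wild-type MF1 mouse embryos by in utero electroporation at E13.5, and tissue was taken at E14.5. The Hes5 promoter drove the fusion in radial glial cells (RGCs), the stem cells of the cortex, and the Tα1 promoter drove it in intermediate progenitor cells (IPCs), their dividing daughters. The series holds 39 samples, and those used here are RBPJ (human RBPJ1) in RGCs and in IPCs, with 3 samples each, Notch in 4 samples of each cell type, and Dam-only controls in 5 RGC and 4 IPC samples. The RGC Notch samples comprised 2 with NICD, the intracellular domain of mouse Notch, and 2 with NdECD, which lacks the extracellular domain, whereas the 4 IPC Notch samples all carried NICD. All fusions came from plasmids, so Notch in IPCs was ectopic, and cells were not sorted, so that a cell type rests on its promoter alone. Expression was not among the values read here, and neither cell type could be checked against markers.

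The authors deposited 1 peak list for each protein and cell type, pooled over samples, with peak positions and no height, and a file of consensus peaks with a k-means cluster number from 1 to 8. Single samples, their depth and the spread between them cannot be read from these files, so no comparison below carries a test between samples. Shares are given with exact (Clopper-Pearson) 95% intervals, and these intervals allow for counting error alone. Peaks of 1 gene are neighbours on 1 stretch of chromosome and are not replicates. The RBPJ and Notch lists of a cell type were called against the same Dam-only samples, so calls in both lists are described as counts and shares and nothing further is drawn from them.

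PRDM proteins carry a PR domain, related to the SET domain of histone methyltransferases, and in nearly all cases zinc fingers that bind DNA. They act on chromatin and steer cell fate in many lineages. PRDM16 is best known for brown fat and for neural and haematopoietic stem cells, and in the cortex it is made in radial glia. RBPJ is the DNA-binding partner of Notch, and its preferred sites contain the word TTCCCA, which reads as TGGGAA on the other strand.

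Sequences of Prdm16 are shown first because they carry the RBPJ words on which the locus is described below. Each line holds genomic sequence of mm10 (GRCm38) on the minus strand, the coding strand of Prdm16, written 5′ to 3′, with RBPJ words in capitals. Peaks of Prdm16 are numbered from 1 to 19 along the direction of transcription. The longer RBPJ words searched were TGTGGGAA and CGTGGGAA on both strands, each of which contains the 6-base core word. The windows of 120 bases are centred on a longer word that lay under peaks of at least 2 lists.

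Prdm16 peak 1, upstream, chr4:154641182-154641301: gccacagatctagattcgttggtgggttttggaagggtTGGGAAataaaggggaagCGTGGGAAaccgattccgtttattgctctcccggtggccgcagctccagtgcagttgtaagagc

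Prdm16 peak 8, intron 1, chr4:154550256-154550375: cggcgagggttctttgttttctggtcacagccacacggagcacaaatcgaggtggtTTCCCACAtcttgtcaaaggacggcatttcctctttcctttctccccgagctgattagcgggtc

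Prdm16 peak 10, intron 2, chr4:154527767-154527886: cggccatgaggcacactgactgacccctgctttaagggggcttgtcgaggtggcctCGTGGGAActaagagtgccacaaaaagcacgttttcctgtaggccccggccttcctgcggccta

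Prdm16 peak 11, intron 2, chr4:154514081-154514200: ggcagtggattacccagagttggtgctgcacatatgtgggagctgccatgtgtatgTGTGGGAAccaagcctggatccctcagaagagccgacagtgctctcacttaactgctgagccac

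Prdm16 peak 13, intron 2, chr4:154495203-154495322: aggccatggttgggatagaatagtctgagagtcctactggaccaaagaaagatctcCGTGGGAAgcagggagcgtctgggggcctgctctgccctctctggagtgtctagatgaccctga

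The next line, from peak 7 in intron 1, holds 2 longer words on opposite strands under an RGC RBPJ peak.

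Prdm16 peak 7, intron 1, chr4:154572977-154573097: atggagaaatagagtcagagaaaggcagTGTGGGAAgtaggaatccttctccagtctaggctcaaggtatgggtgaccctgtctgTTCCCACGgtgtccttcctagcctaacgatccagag

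Prdm16 was the member with most peaks, and nearly all of them lay inside the gene. Prdm16 (ENSMUSG00000039410) spans chr4:154316125-154636873 on the minus strand, 321 kb with 7 annotated start sites. Of its 19 consensus peaks, 18 lay in introns by their midpoint and 1 lay upstream, 1.74 kb from the first start site. Intron 1 of the longest transcript held 8 peaks, intron 2 held 4 and intron 3 held 6. No other protein-coding gene took a peak that overlapped the gene body.

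**Figure D1:**
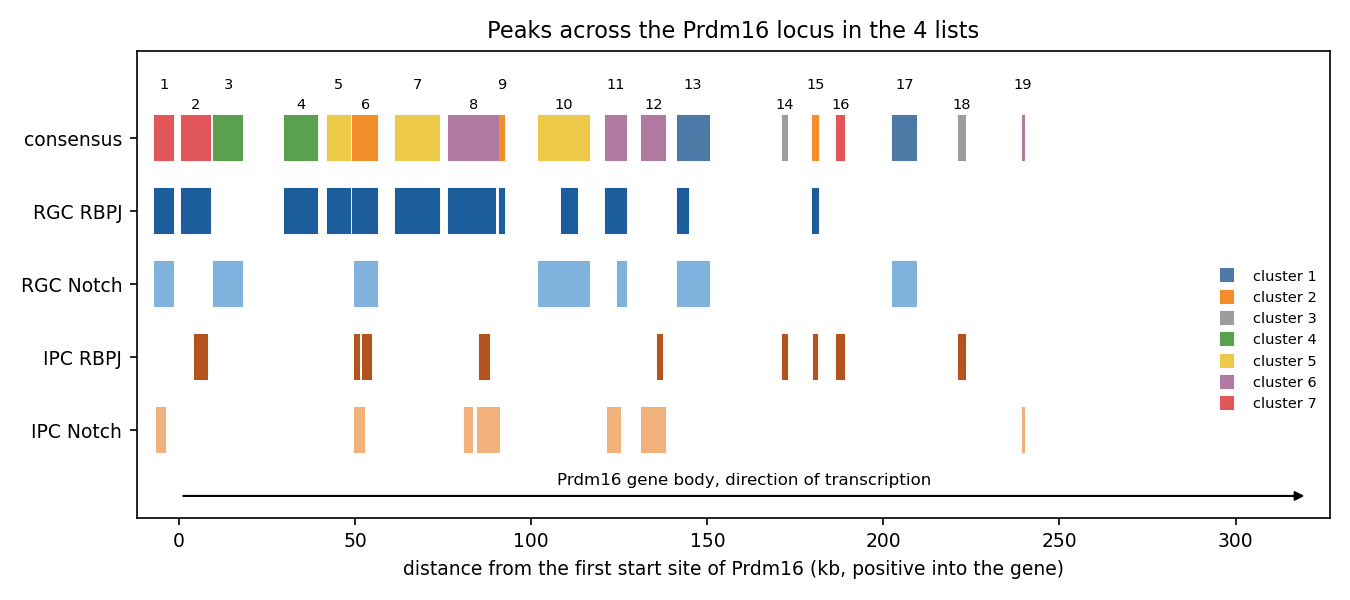
Peaks along Prdm16 by distance from its first start site in kb (negative values upstream), with the consensus peaks numbered and coloured by cluster in the top track and the peaks of each list below. All but 1 of the 12 RGC RBPJ peaks lie upstream or in introns 1 and 2, whereas 4 IPC RBPJ peaks lie farther along, in intron 3.

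The consensus peaks of Prdm16 covered 35.5% of its gene body. Among the 2492 protein-coding genes of at least 100 kb the median was 1.57%, and Prdm16 ranked 1. With a minimum of 50 kb it ranked 4 of 5007, and with 200 kb it ranked 1 of 998. RGC RBPJ peaks covered 22.0% of the gene body (rank 7 of 2492) and RGC Notch peaks 14.2% (rank 3). IPC RBPJ peaks covered 5.10% (rank 12) and IPC Notch peaks 6.28% (rank 1). The coverage thus lay near the top of the long genes in each of the 4 lists taken alone.

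Both the number and the width of the peaks were high. Prdm16 ranked 36 by number of peaks and 3 by the bases they covered, 119 kb, among the 8720 genes with a peak. The stretch of chromosome nearest to its start sites spanned 327 kb. Per 100 kb of that stretch Prdm16 had 5.80 peaks, rank 899 of the 8720. Among genes with at least 10 peaks it ranked 5 of 276 by this density, where the median was 2.06. Its peaks were 336 to 14265 bp wide with a median of 6547 bp, against 1890 bp over all consensus peaks. Of the 276 genes with at least 10 peaks, for which the median of the medians was 2076 bp, Prdm16 had the widest peaks by this measure. Widths of at least 5 kb were reached by 13 of the 19 peaks, 68.4% (43.4 to 87.4), and by 5.19% of all peaks. Consensus peaks join overlapping peaks of the lists and so can be wider than any of them, but single list peaks were wide too. RGC RBPJ peaks of Prdm16 had a median of 5899.5 bp against 2059 bp for that list, and RGC Notch peaks 6624 against 2389 bp. In IPCs the medians were 1811 against 1398 bp for RBPJ and 2164.5 against 1284 bp for Notch.

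**Figure D2:**
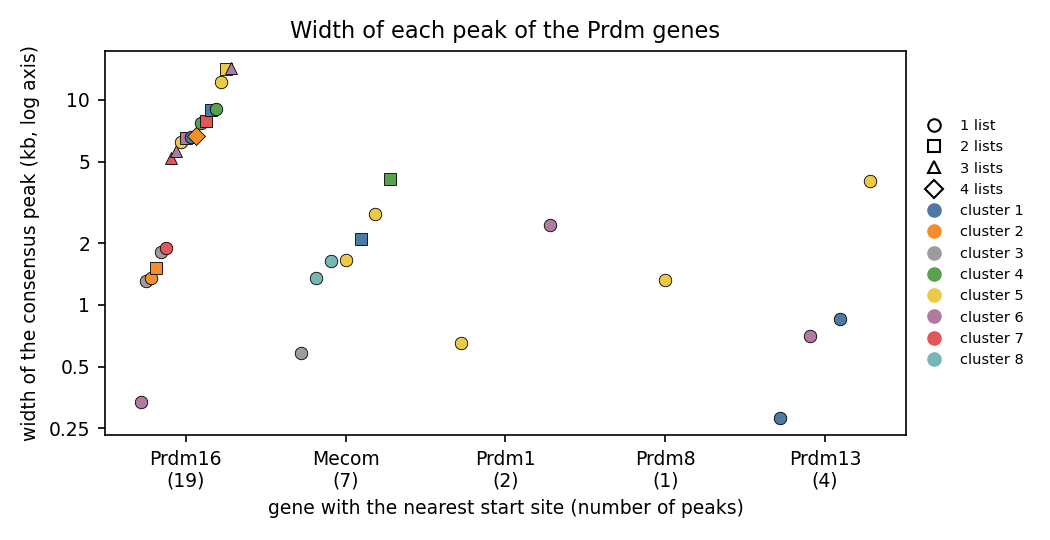
Width of each consensus peak of the 5 Prdm genes that have one, in kb on a log axis, with the number of lists as the marker shape and the cluster as the colour. The 13 peaks of at least 5 kb all belong to Prdm16.

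RGC RBPJ was called at 12 of the 19 Prdm16 peaks, 63.2% (38.4 to 83.7), against 67.6% of all consensus peaks. RGC Notch was called at 7, 36.8% (16.3 to 61.6), against 17.7%. IPC RBPJ was called at 8, 42.1% (20.3 to 66.5), against 26.2%. IPC Notch was called at 6, 31.6% (12.6 to 56.6), against 10.1%. The interval for IPC Notch lay above the share of all peaks, whereas those for the other 3 lists included it. This did not hold with all annotated genes competing for peaks, where IPC Notch was called at 3 of 12 peaks, 25% (5.49 to 57.2), nor with peaks of at least 1000 bp, where it was called at 5 of 18, 27.8% (9.69 to 53.5) against 10.1%. Counted as separate peaks of the lists, Prdm16 had 12 and 7 in the RGC lists of RBPJ and Notch, respectively, and 9 and 8 in the corresponding IPC lists.

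Calls in 1 list alone were found at 10 of the 19 Prdm16 peaks, 52.6%, against 82.9% of all peaks. Both proteins were called in RGCs at 5 peaks, 26.3% (9.15 to 51.2), against 7.77% of all peaks, and in IPCs at 3 peaks, 15.8% (3.38 to 39.6), against 2.36%. Calls in at least 3 lists were found at 4 peaks, 21.1% (6.05 to 45.6), against 3.88%. The intervals take neighbouring peaks as independent, and the lists of a cell type share Dam-only samples. Nothing is drawn from where these intervals lie. The shares themselves moved with width. Of the 1081 consensus peaks of at least 5 kb in the whole data, both proteins were called in RGCs at 34.3%, in IPCs at 9.90%, and 3 or more lists at 21.3%. Of the 13 Prdm16 peaks of that width the shares were 38.5%, 23.1% and 30.8%, the first of which is 5 of 13 peaks. IPC Notch was called at 38.5% of these 13 peaks and at 22.0% of all peaks of at least 5 kb. With all annotated genes competing, the intervals for both proteins in RGCs (3 of 12 peaks), both in IPCs (1 of 12) and at least 3 lists (1 of 12) included the shares of all peaks.

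**Figure D3:**
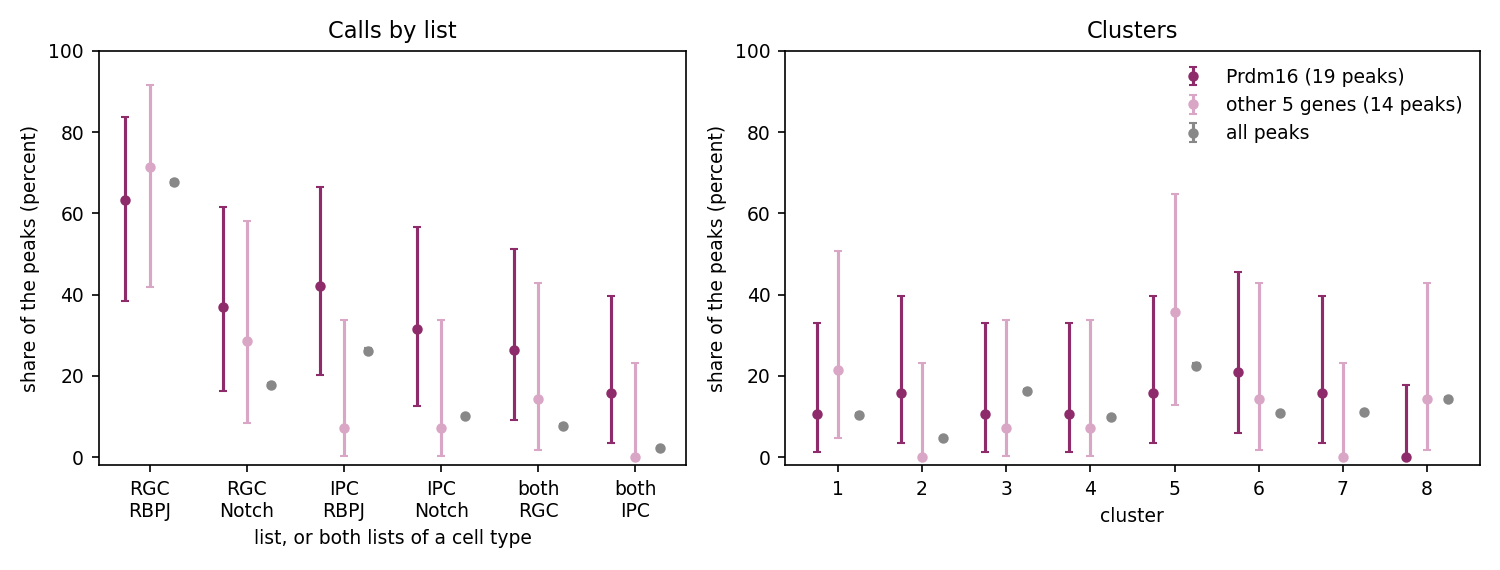
Share of consensus peaks, in percent with exact 95% intervals, called in each list or in both lists of a cell type (left) and falling in each cluster (right), for Prdm16, for the other 5 Prdm genes together and for all nuclear consensus peaks. The interval of Prdm16 for IPC Notch lies above the share of all peaks. Nothing is drawn from the intervals for both proteins, whose lists share Dam-only samples.

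Of the 19 Prdm16 peaks, 8 were called in RGCs only, 42.1% (20.3 to 66.5), against 66.1% of all peaks. Calls in IPCs only were found at 5, 26.3% (9.15 to 51.2), against 22.4%, and calls in both cell types at 6, 31.6% (12.6 to 56.6), against 11.5%. The split by cell type was not recomputed for peaks of at least 5 kb or with all annotated genes competing. Intron 1 had 5 peaks of RGCs only and 0 of IPCs only, and its peaks had a median width of 7782.5 bp. Intron 2 had 2 of RGCs only and 1 of IPCs only. Intron 3 had 1 of RGCs only and 4 of IPCs only, with a median width of 1665 bp. The intron 3 peaks were 63.3 to 79.2 kb from a start site except for peak 19, at 48.6 kb. All 6 were assigned through a start site of a non-coding transcript of Prdm16, and with start sites of coding transcripts only they were nearest to B230104I21Rik, although they lie inside Prdm16.

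Peak 6 was the Prdm16 peak called in all 4 lists. It lay in intron 1 at chr4:154580683-154587374, 49.4 kb from the nearest start site, and belonged to cluster 2. The RGC RBPJ peak spanned all of its 6692 bp and the RGC Notch peak 6156 bp. IPC RBPJ had 2 peaks inside it, of 2286 and 1136 bp, and IPC Notch had 1 of 2511 bp. The peaks of the 4 lists had 2 stretches in common, of 1136 and 197 bp. The longer one was not searched for words on its own. Peak 6 as a whole held 9 core words, 1.34 per kb, against 1.17 per kb over all consensus peaks. The shorter stretch, shown here because it is short and all 4 profiles share it, held 0 core words and 1 GATC site. At such densities 0 words in 197 bp says little about the peak.

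Prdm16 peak 6, intron 1, chr4:154584412-154584608: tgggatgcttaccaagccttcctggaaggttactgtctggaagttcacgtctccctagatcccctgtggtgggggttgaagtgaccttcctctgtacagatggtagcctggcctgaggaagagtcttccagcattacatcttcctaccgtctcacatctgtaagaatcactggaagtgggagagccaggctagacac

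The start of Prdm16 lay between peaks 1 and 2 and was itself free of peaks. Peak 1 (chr4:154638615-154643790, cluster 7) was called for RBPJ and Notch in RGCs and for Notch in IPCs, and the 3 lists shared 2360 bp of it. Peak 2 (chr4:154628156-154636006, cluster 7) lay 0.791 kb from the nearest start site and was called for RBPJ in RGCs and IPCs. The gap between them, chr4:154636007-154638614, was 2608 bp long and held 3 of the 7 start sites. It had a GC content of 66.7% and 91.6 CpG per kb, with 1.53 GATC sites per kb against 2.91 per kb over all consensus peaks. Since Dam marks GATC sites, few of them limit what TaDa can report there, and the part of this in the gap was not tested. The 250 bases before the RefSeq start, from chr4:154636874-154637123 within that gap, held 0 core words and 0 GATC sites. Of 32851 RefSeq promoter stretches of this length, 21.6% held the core word and 58.1% held no GATC.

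Cluster 6 had 4 of the Prdm16 peaks, 21.1% (6.05 to 45.6), against 10.8% of all peaks. Clusters 2, 4, 6 and 7 group peaks with signal of both proteins and together had 12 of the 19, 63.2% (38.4 to 83.7), against 36.3% of all peaks. Over all peaks of at least 5 kb it was 48.6%, against 61.5% of the 13 Prdm16 peaks of that width, and for cluster 6 alone 19.2% against 23.1%. With all annotated genes competing, Prdm16 had 7 of 12, 58.3% (27.7 to 84.8), and with peaks of at least 1000 bp 11 of 18, 61.1% (35.7 to 82.7), intervals that include the shares of all peaks. Among these clusters, cluster 2 had 3 (4.76% of all peaks), cluster 4 had 2 (9.79%) and cluster 7 had 3 (11%). Of the clusters in which 1 protein in 1 cell type leads, cluster 1 (RGC Notch) had 2 against 10.5% of all peaks, cluster 3 (IPC RBPJ) had 2 against 16.3%, cluster 5 (RGC RBPJ) had 3 against 22.5%, and cluster 8 (RGC RBPJ) had 0 against 14.4%. A count of 0 of 19 allows a share of up to 17.6%, so that the absence of cluster 8 was within counting error.

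All 4 cluster 6 peaks of Prdm16 were called for IPC Notch, as were 48.3% of all 2241 cluster 6 peaks. With 4 peaks the share is uncertain. Clusters were formed on binding intensity, so calls and clusters are not independent. Peak 8 (chr4:154546072-154560336) was the widest of the gene with 14265 bp and was also called for RBPJ in both cell types. Its RGC RBPJ peak covered 13232 bp, whereas IPC RBPJ covered 2602 bp and IPC Notch had 2 peaks of 5871 and 1969 bp. Peak 11 (chr4:154510007-154515631) was also called for both proteins in RGCs, and its 3 lists shared 536 bp. Peak 12 (chr4:154498786-154505332) was called in both IPC lists and in neither RGC list. Peak 19 (chr4:154397012-154397347) was a call of IPC Notch alone, 336 bp wide and about 240 kb into the gene.

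Among the other named peaks, peak 10 (chr4:154520599-154534720, cluster 5) was the only peak of Prdm16 on a start site, an internal one of a non-coding transcript. It was called for both proteins in RGCs, and Notch covered 14122 bp of it while RBPJ covered 4042 bp. Peak 13 (chr4:154486454-154495329, cluster 1) was likewise called for both proteins in RGCs. Peak 15 (chr4:154455409-154456927, cluster 2) was called for RBPJ in both cell types, over a shared 605 bp. Peak 17 (chr4:154427656-154434279, cluster 1) was called for RGC Notch alone and lay farthest from a start site of the gene, at 79.2 kb.

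The RBPJ core word was about as dense in Prdm16 peaks as in other peaks. The core word occurred 148 times in 16 of the 19 peaks, 1.24 per kb, against 1.17 per kb over all consensus peaks. The ratio was 1.07 (0.901 to 1.25, exact Poisson interval on the word count). Longer words occurred 10 times in 8 of the 19 peaks, 5 of each form. They were found in 21.9% of all peaks and in 50.1% of those of at least 5 kb. The 10 words at Prdm16 lay in 119 kb of peaks, which is fewer per kb than the 0.118 longer words per kb of all consensus peaks. All 10 lay under an RGC RBPJ peak, 3 also under an RGC Notch peak, 1 under an IPC RBPJ peak and 3 under an IPC Notch peak. The peaks of these lists at Prdm16 were 75.9, 50.6, 16.4 and 22.5 kb long in all, respectively. The windows printed for peaks 1, 8, 10, 11 and 13 are the 5 places where peaks of at least 2 lists lay over a longer word. Of windows of 120 bases at the midpoints of all consensus peaks, 1.48% held a longer word and 13.2% the core word. The printed windows were chosen because they hold a longer word, so these shares cannot show whether they are unusual. No member peak held 2 core words facing each other with 15 to 17 bases between them, an arrangement found in 0.231% of all peaks.

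GATC sites had a density of 2.81 per kb in the Prdm16 peaks against 2.91 per kb in all peaks, and the GC content was 51.9% against 46.2%. Peaks 14 and 18, both called for IPC RBPJ alone in cluster 3, held 0 GATC sites, as did 9.76% of all peaks.

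Mecom, the closest relative of Prdm16 and known for blood stem cells, had 7 peaks, 6 of them called in an RGC list, 85.7% (42.1 to 99.6), against 77.6% of all peaks. The gene (ENSMUSG00000027684) spans chr3:29951296-30548008 on the minus strand, 597 kb with 16 start sites. RGC RBPJ was called at 6 of the 7, RGC Notch at 2, IPC RBPJ at 1 and IPC Notch at 0, and each exact interval included the share of all peaks. The peaks were 583 to 4122 bp wide with a median of 1662 bp and covered 2.11% of the gene body, rank 1015 of the 2492 long genes. They fell in clusters 5 (2), 8 (2), 1, 3 and 4 (1 each).

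Both RGC proteins were called at 2 of the 7 Mecom peaks, 28.6% (3.67 to 71.0), an interval that includes the 7.77% of all peaks. Peak 1 (chr3:30505677-30509798, cluster 4) lay on a start site, was the widest of the gene, and its 2 lists shared 509 bp. Peak 5 (chr3:30014358-30016453, cluster 1) lay 0.853 kb from a start site, with its midpoint in an exon of Mecom where the antisense gene Mecomos also lies, and the lists shared 1848 of its 2096 bp. The farthest, peak 7 (chr3:29845375-29847014, cluster 8), lay downstream of the gene, 151 kb from a start site. A peak of cluster 6 was not found at Mecom, and 0 of 7 allows a share of up to 41.0%, against 10.8% of all peaks.

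**Figure D4:**
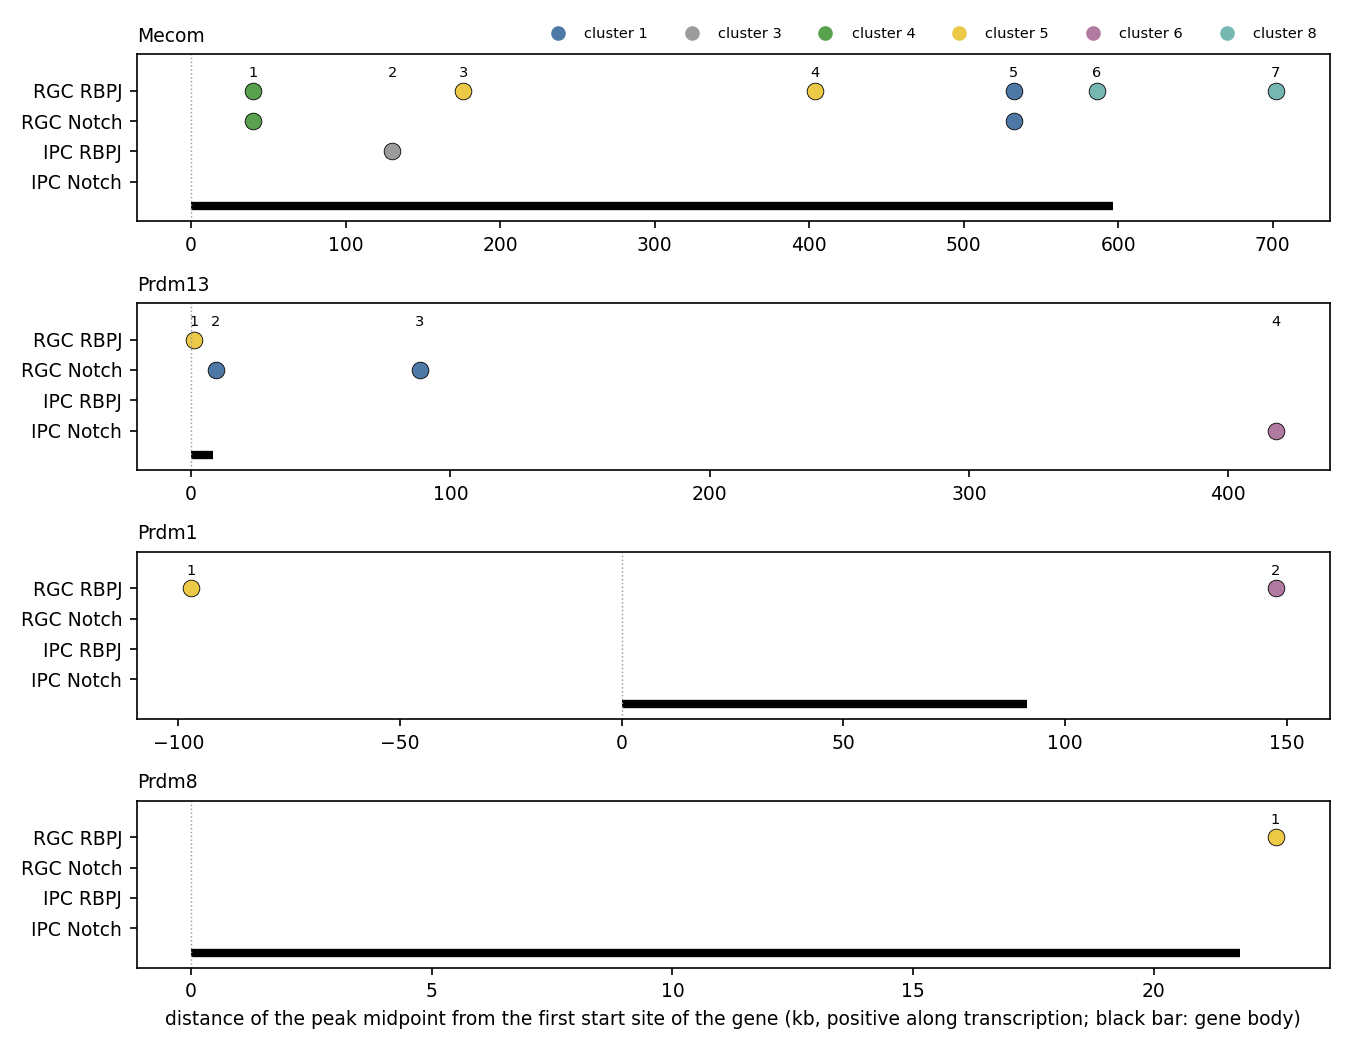
Midpoints of the consensus peaks of Mecom, Prdm13, Prdm1 and Prdm8 by distance from the first start site of each gene in kb, with a point for each list that called the peak, coloured by cluster, and a bar for the gene body. Nearly all points lie in the RGC tracks, with 1 IPC RBPJ point at Mecom and 1 IPC Notch point at Prdm13.

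Prdm13, which acts downstream of Ptf1a in the specification of inhibitory neurons of the spinal cord, had 4 peaks, each called in 1 list. The gene (ENSMUSG00000040478) spans chr4:21677480-21685963 on the minus strand, 8.48 kb. Peak 1 (chr4:21682639-21686678, cluster 5), called for RGC RBPJ, lay on the start of the gene, was 4040 bp wide and covered 39.2% of the gene body. It held 8 core words. The 250 bases before the RefSeq start (GRCm38.p6) lie within this peak and held 2 core words, as 2.77% of promoter stretches held at least 2. Prdm13 was the highest of the 5 members matched. Over RefSeq promoter stretches of 300 bases it had 2 core words, Prdm1 had 1, and Mecom, Prdm8 and Prdm16 had 0. The 250 bases of Prdm13 are shown on the minus strand, its coding strand, with the core words in capitals.

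Prdm13 upstream of the start, chr4:21685964-21686213: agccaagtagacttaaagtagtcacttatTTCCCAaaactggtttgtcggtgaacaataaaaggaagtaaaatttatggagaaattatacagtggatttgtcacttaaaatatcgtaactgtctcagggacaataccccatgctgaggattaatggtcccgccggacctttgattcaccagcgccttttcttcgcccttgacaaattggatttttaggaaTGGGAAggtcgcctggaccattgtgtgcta

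The other 3 Prdm13 peaks lay downstream of the gene. Of these, 2 were called for RGC Notch in cluster 1, of 281 and 850 bp, and the narrower held 0 GATC sites. Peak 4 (chr4:21267376-21268078, cluster 6) was called for IPC Notch alone and lay 418 kb from the start site. It was given to Prdm13 only because no other protein-coding start site was nearer.

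Prdm1 and Prdm8 had peaks of RGC RBPJ only, and none within the gene. Prdm1 (ENSMUSG00000038151, also known as Blimp1, a regulator of plasma cell and photoreceptor fate) had 1 peak at chr10:44625327-44625975 in cluster 5, 96.8 kb upstream, and 1 at chr10:44379788-44382227 in cluster 6, downstream and 75.0 kb from the nearest start site. The second, 2440 bp wide, held 1 longer word, TGTGGGAA. Prdm8 (ENSMUSG00000035456), which acts with Bhlhe22 in the wiring of cortical projection neurons, had 1 peak at chr5:98189066-98190383 in cluster 5. It was 1318 bp wide, lay just past the end of the gene and 8.09 kb from a start site, and held 5 core words, 3.79 per kb. Prdm6 (ENSMUSG00000069378), known from smooth muscle, had 0 consensus peaks and 0 peaks in any of the 4 lists.

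**Figure D5:**
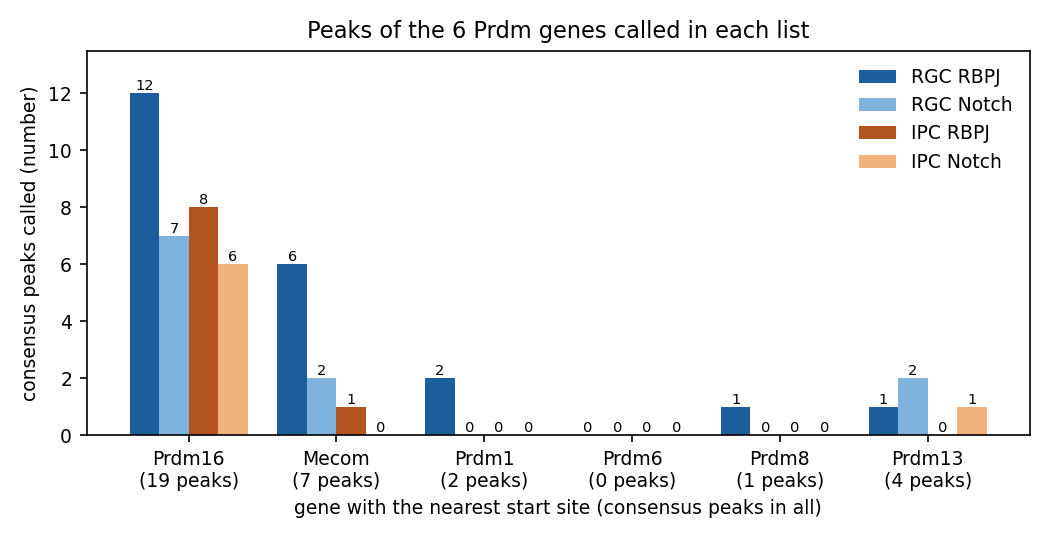
Number of consensus peaks of each of the 6 Prdm genes called in each of the 4 lists, with the number of consensus peaks of each gene below its name. Prdm16 has calls in all 4 lists, from 6 to 12, whereas the IPC bars of the other 5 genes sum to 1 for each protein.

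Among the 14 peaks of the other 5 genes, RGC RBPJ was called at 10, 71.4% (41.9 to 91.6), against 67.6% of all peaks. RGC Notch was called at 4, 28.6% (8.39 to 58.1), against 17.7%. IPC RBPJ and IPC Notch were called at 1 each, 7.14% (0.181 to 33.9), against 26.2% and 10.1%. All 4 intervals included the share of all peaks. A call in any IPC list was found at 2 of the 14, 14.3% (1.78 to 42.8), at 11 of the 19 Prdm16 peaks, 57.9% (33.5 to 79.7), and at 33.9% of all peaks. The intervals of Prdm16 and of the other genes overlap. None of the 14 reached 5 kb and none was called in 3 or more lists, counts that allow shares of up to 23.2%.

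Of 8 further genes of the PRDM family, 4 had a consensus peak, 50% against 39.7% of all protein-coding genes. They had 13 peaks in all, 1.62 per gene against 0.962 over all protein-coding genes. RGC RBPJ was called at 11 of the 13 (84.6%, against 67.6% of all peaks), RGC Notch at 3 (23.1%, against 17.7%), and IPC RBPJ and IPC Notch at 2 each (15.4%, against 26.2% and 10.1%). Prdm2 had 7 peaks, 1 of them called in both RGC lists, and Prdm11 had 3, 1 of them called in both. The Prdm2 peaks lay at a median of 292 kb from a start site, and the stretch nearest to Prdm2 start sites spanned 539 kb. Counts per gene were not adjusted for such length. Prdm12, a regulator of pain-sensing neurons, had 2 peaks, both called in 2 lists. Prdm14, a regulator of pluripotency and germ cells, had 1 peak, called in both IPC lists. None of the 13 peaks was in cluster 6, a count that allows a share of up to 24.7%, against 10.8% of all peaks. Of all peaks, 82.9% were called in 1 list.

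Among 7 genes known as partners, inducers or targets of these factors, 6 had a peak, 85.7% against 39.7% of all protein-coding genes. They had 23 peaks in all, 3.29 per gene against 0.962 over all protein-coding genes. RGC RBPJ was called at 12 of them (52.2%, against 67.6% of all peaks), RGC Notch at 5 (21.7%, against 17.7%), IPC RBPJ at 8 (34.8%, against 26.2%) and IPC Notch at 3 (13.0%, against 10.1%). For the family and the partner list alike, the exact interval of each of these shares included the share of all peaks. Ctbp2, a corepressor that binds PRDM16 and MECOM, had 9 peaks, of which 2 were called in 2 lists, and 5 of the 9 were called for IPC RBPJ. Pdzrn3, linked to PRDM16 in the placing of cortical neurons, also had 9, of which 1 was called in 2 lists. The stretches nearest to the start sites of Ctbp2 and Pdzrn3 spanned 365 and 739 kb, and counts per gene were not adjusted for such length. Bhlhe22 and Ptf1a, the partner of Prdm8 and the inducer of Prdm13, had 1 peak each, called in 2 lists. The other 3 genes had 3 peaks in all, each called in 1 list, as were 82.9% of all peaks.

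By their peaks, the genes most like Prdm16 were Gm26897, Sorl1 and Pou3f3. Likeness was the cosine between tables of consensus peaks by list and cluster, over 275 other protein-coding genes with at least 10 peaks, for which the median was 0.607. It was 0.880 for Gm26897, with 16 peaks, 0.859 for Sorl1, with 24, and 0.858 for Pou3f3, a cortical transcription factor gene with 29. The next gene followed at 0.857. No error was computed for these values, so their order, the first place included, is not established.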

How the data were processed

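The members and gene lists were chosen with earlier results of these data known. Reads had been aligned to mm10 by the authors, who ran MACS2 in broad mode on each fusion sample against each Dam-only sample, set an FDR limit and retained regions called in every such pairing. The deposited values are peak positions in bp, with 1 list per protein and cell type, and consensus peaks with a cluster number from k-means on binding intensity. Scores in the lists do not vary, the intensities are not in the files used, and 0 columns hold single samples, so depth per sample and replicate spread are unknown. Peaks of the mitochondrial genome were left out.

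From these positions, peaks were given to the GENCODE M21 (GRCm38) protein-coding gene with the nearest start site of any transcript, measured from the edge of the peak. A list was counted as called from an overlap of 1 bp, and these calls equalled the names in the cluster file at 20809 of 20809 peaks. Of the assigned peaks, 270 were tied between genes, 0 of them involving a member. Features were read at the midpoint of a peak. RBPJ words and GATC sites were counted in GRCm38.p6, and RefSeq promoters matched 5 of the 6 members. Peaks described singly were those called in at least 2 lists, on a start site or in cluster 6, and the widest and farthest of each gene. 1 gene of the family list is not reported here. In family and partner lists, genes with a peak called in at least 2 lists were named, and the 3 genes most like Prdm16 by cosine. Software was Python 3.11.15, scipy 1.17.1, numpy 2.4.6, pysam 0.24.0, pandas 2.3.3 and matplotlib 3.10.9. The assignment was tested on simulated data and matched an exhaustive search at 2000 of 2000 peaks. Alternatives were distance from the midpoint, a limit of 100 kb, coding transcripts only, all annotated genes, peaks of at least 1000 bp, the gene body with 5 kb before it, other overlap rules, the central 500 bp of peaks and the 7-base word TTCCCAC. Other minimum lengths for the ranking by coverage were added after seeing the data.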

Additional observations from a re-analysis of the deposited data

How the results depend on the processing

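No paired analysis was possible because the lists are pooled over samples and carry no replicate. For the same reason no replicate could be left out, and stricter scores were not run because the score columns are constant. Of 118 recomputed counts, ranks and ratios, 88 stayed within the limit for calling them the same (1.5 times for a count or rank, the counting interval for a ratio) and 30 moved. With all annotated genes competing, Prdm16 had 12 consensus peaks, 5 called for RGC RBPJ, 3 for IPC Notch and 7 in clusters 2, 4, 6 and 7, since the non-coding genes Gm13133, Gm13134 and Gm13111 took 3, 3 and 1 of its peaks. The other 5 genes then had 4 peaks, with 4, 2, 0 and 0 called for RGC RBPJ, RGC Notch, IPC RBPJ and IPC Notch, 0 in cluster 6 and 1 in clusters 2, 4, 6 and 7. With coding transcripts only, 4 Prdm16 peaks were called for IPC RBPJ. Over gene bodies with 5 kb before them, all values of Prdm16 were as before, whereas the other 5 genes had 7 peaks, with 6, 2 and 0 called for RGC RBPJ, RGC Notch and IPC Notch, 0 in cluster 6 and 1 in clusters 2, 4, 6 and 7. Within 100 kb they had 0 called for IPC Notch and 1 in cluster 6. With peaks of at least 1000 bp they had 9 consensus peaks, with 2, 0 and 0 called for RGC Notch, IPC RBPJ and IPC Notch and 1 in cluster 6, and 1, 0 and 0 list peaks for RGC Notch, IPC RBPJ and IPC Notch. The density ratio of TTCCCAC in these genes was 0.605, against 1.08 for the core word, and in Prdm16 it was 0.903 against 1.07. In the ranking by coverage, Prdm16 moved from 1 to 4 with genes from 50 kb. The cause was not tested beyond what each setting removes.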
